A study of Rattus norvegicus with 4 samples.

Results

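Heat shock proteins and endoplasmic reticulum (ER) chaperones bind unfolded proteins and help them fold, and they are grouped here by the compartment in which they work. The members were the 9 genes Hsph1, Hspb1 and Hspa8 (cytosolic), Hspa5, Hsp90b1, Calr and Canx (ER) and Hspd1 and Hspe1 (mitochondrial), read by every probe set that the platform annotation assigns to one of these symbols. The rule took 27 of the 8799 probe sets of the table, of which 24 carried a single symbol and covered 8 of the 9 genes, among 4737 symbols read in this way on the arrays. The other 3 also listed a second gene, among them both probe sets of Hspa8, so Hspa8 has no probe set of its own here and those values are given apart.

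Expression was measured on 4 Affymetrix oligonucleotide arrays, 2 of the Mat-Lylu line and 2 of the G line. Both lines are sublines of the Dunning R3327 rat prostatic tumour. Mat-Lylu is described by the submitters as highly metastatic and G as non-metastatic, and G is the control of the design. Each condition is thus a single line, and no treatment, culture temperature, passage or separate culture is named in the labels, which call the arrays duplicates. The p-values below therefore rest on array-to-array scatter within a line, which may be no more than technical, and the number of arrays limits the precision.

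In the cytosol, the transcription factor Hsf1 induces chaperone genes through heat shock elements in their promoters when unfolded proteins accumulate. In the ER, the unfolded protein response induces Hspa5, Hsp90b1 and Calr through ER stress elements, which bind Atf6 or Xbp1 together with the CCAAT-binding factor NF-Y. Mitochondria import Hspd1 and Hspe1, which form the folding chamber and its lid, and these genes are classical heat shock genes too.

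The promoter windows of the members, 250 bases before to 50 bases after the transcript start (RefSeq, GRCr8), are shown to set out which stress elements the members of each compartment carry. A heat shock element core was searched as GAANNTTC or TTCNNGAA; each reads the same on both strands, and the cores overlap in some promoters. The ER stress element was searched on both strands as CCAAT followed by 9 bases of any kind and CCACG. At least 1 heat shock element core lay in the windows of all 5 cytosolic and mitochondrial members and in none of the 4 ER members, while 15.85% of the 33469 rat promoters of the table hold one. An ER stress element lay in the windows of all 4 ER members and in none of the other 5, while 22 promoters of the table (0.0657%) hold one. A match is a description of these letters and does not show that a factor binds there. The shorter motif CCACG lay in 31.6% of all promoters and the TATA box TATAAA in 14.22%; Calr was the only member with TATAAA. The element TGACGTGG (0.5946% of all promoters) and the amino acid response core TGATGNAAN (3.968%) were in no member window. Neither the proteins of these factors nor their binding were measured, and the Hsf1 transcript is given below.

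The windows of the 3 members that were lower in Mat-Lylu and of 2 ER members are shown, with the heat shock element cores, or the 2 ends of each ER stress element, in capitals. Hsph1 lies at chr12:10427118-10427417 (plus strand) and has cores that start at positions -105, -36 and -31 from the transcript start. Hspb1 lies at chr12:26432252-26432551 (minus strand), with cores at -129 and -109. Hspe1 lies at chr9:64084077-64084376 (plus strand), with 3 overlapping cores at -65, -60 and -55. The windows of Hspa8 and Hspd1, whose probe sets did not pass, are not printed. Hspa8 has cores at -213, -208, -55 and -50, and Hspd1 at -242, -237 and -232. Hspa5 lies at chr3:38452766-38453065 (plus strand), with its element at -43, and Hsp90b1 at chr7:23012244-23012543 (minus strand), with elements on opposite strands at -176 and -72.
Hsph1: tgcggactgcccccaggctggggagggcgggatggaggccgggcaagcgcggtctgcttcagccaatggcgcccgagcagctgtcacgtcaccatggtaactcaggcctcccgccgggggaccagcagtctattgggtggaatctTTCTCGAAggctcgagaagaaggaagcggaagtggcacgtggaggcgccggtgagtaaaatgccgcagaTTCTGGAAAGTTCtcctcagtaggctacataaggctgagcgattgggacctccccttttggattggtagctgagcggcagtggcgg
Hspb1: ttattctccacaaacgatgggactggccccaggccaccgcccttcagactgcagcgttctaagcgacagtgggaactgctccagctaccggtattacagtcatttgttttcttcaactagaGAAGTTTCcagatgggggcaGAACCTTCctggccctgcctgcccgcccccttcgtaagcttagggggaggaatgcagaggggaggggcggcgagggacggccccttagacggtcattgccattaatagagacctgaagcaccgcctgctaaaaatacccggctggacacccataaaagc
Hspe1: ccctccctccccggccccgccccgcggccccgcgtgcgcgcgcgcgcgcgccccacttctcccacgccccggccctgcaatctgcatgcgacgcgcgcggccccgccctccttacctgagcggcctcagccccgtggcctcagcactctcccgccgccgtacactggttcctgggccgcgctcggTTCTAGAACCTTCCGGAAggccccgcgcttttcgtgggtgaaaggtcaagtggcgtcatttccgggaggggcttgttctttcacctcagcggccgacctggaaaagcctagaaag
Hspa5: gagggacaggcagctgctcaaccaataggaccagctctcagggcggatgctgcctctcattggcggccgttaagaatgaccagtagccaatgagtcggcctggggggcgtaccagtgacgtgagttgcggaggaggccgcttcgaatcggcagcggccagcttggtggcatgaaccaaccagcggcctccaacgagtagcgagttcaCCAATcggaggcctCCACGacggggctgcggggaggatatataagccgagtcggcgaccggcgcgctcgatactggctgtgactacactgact
Hsp90b1: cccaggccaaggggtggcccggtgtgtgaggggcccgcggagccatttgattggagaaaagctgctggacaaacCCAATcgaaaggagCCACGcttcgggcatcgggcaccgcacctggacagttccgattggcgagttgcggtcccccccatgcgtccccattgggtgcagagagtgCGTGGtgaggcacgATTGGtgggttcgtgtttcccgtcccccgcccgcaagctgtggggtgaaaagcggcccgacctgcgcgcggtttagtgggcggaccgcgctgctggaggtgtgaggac

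Cytosolic and mitochondrial calls were lower in Mat-Lylu, and ER calls were higher. Cytosolic Hsph1 and Hspb1 were lower in Mat-Lylu, by 4.29-fold to 5.55-fold for Hsph1 and by 2.69-fold to 4.45-fold on 3 of the 4 probe sets of Hspb1. The probe sets that cytosolic Hspa8 shares with Haus8l2 did not pass. Mitochondrial Hspe1 was lower by 1.45-fold and 2.09-fold, while its partner Hspd1 did not pass the test. Of the ER members, Hsp90b1, Calr and Canx each had probe sets that were higher in Mat-Lylu and others that did not pass, and Hspa5 did not pass on either tested probe set. All tests are limma on log2(signal + 16), with Benjamini-Hochberg adjustment over 6555 probe sets and a threshold of 0.05.

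Counted by single-symbol probe set, 5 of 6 cytosolic, none of 13 tested ER and 2 of 4 mitochondrial ones were lower in Mat-Lylu. Of all probe sets tested, 20.1% were lower. The cytosolic counts and median cover Hsph1 and Hspb1 only. Both probe sets of Hspa8 also list Haus8l2 and are left out, and neither passed (log2 differences -0.14 and -0.09). None of the cytosolic, 5 of the ER and none of the mitochondrial probe sets were higher, where 13.6% of all probe sets tested were higher. For the ER members 0 probe sets were lower by limma even at an unadjusted p under 0.05, and the same holds for higher mitochondrial probe sets, while 1 cytosolic probe set was higher at that unadjusted level. Median log2 differences (Mat-Lylu minus G) were -2.01 over the cytosolic, 0.09 over the ER and -0.34 over the mitochondrial probe sets, beside -0.03 over all probe sets tested. In either direction 12 of the 23 tested member probe sets passed (33.7% of all tested). Arrays of the lines did not overlap for 15 of the 23 tested member probe sets (67.4% of all tested). No test was run over these lists, since probe sets of a gene share their RNA and are not replicates. Without Mat-Lylu replicate 0 the count of higher ER probe sets was 2, and without either Mat-Lylu array the count of lower mitochondrial probe sets was 1.

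**Figure D1:**
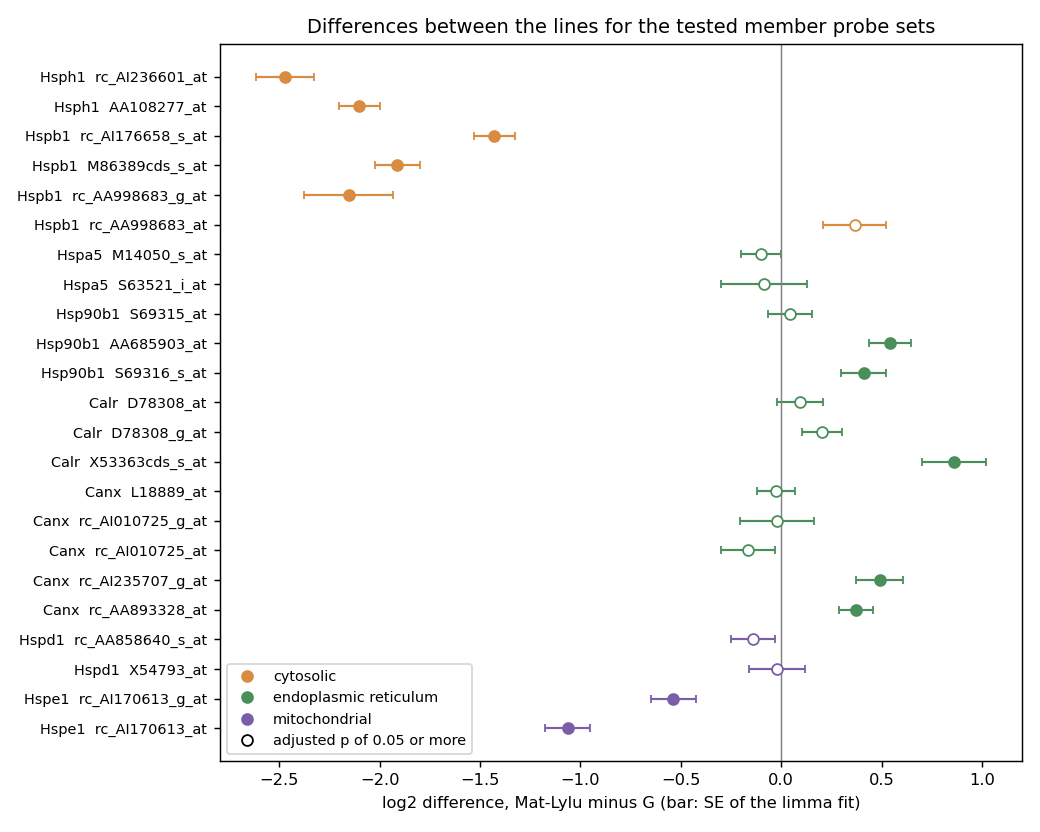
Log2 difference (Mat-Lylu minus G) of the 23 tested member probe sets, with the SE of the limma fit as the bar; colours give the compartment and open points did not pass an adjusted p of 0.05. The cytosolic probe sets reach -2.47, and the ER probe sets lie between -0.17 and 0.86.

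Hsph1 encodes Hsp105, a large relative of Hsp70 that acts as its nucleotide exchange factor and holds back aggregation. On its brighter probe set, rc_AI236601_at, the signals were 5485 and 3983 in Mat-Lylu, against 25582 and 26416 in G. The second probe set, AA108277_at, gave 2915 and 3126 in Mat-Lylu, against 14092 and 11997 in G. Both Mat-Lylu arrays lay well under both G arrays on each probe set, and all 8 values were above the background level of their array. The log2 differences were -2.47 (SE 0.14, adjusted p = 7.4e-06) and -2.10 (SE 0.10, adjusted p = 2.4e-06). Among the 6555 probe sets tested, 59 and 86 had a lower difference than these. Both probe sets stayed past the threshold in each of 14 alternative settings, with log2 differences from -2.70 to -1.99.

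Hspb1 encodes Hsp27, a small heat shock protein that holds unfolding proteins in solution and binds to actin filaments. The probe set M86389cds_s_at gave 11487 and 10149 in Mat-Lylu, against 38603 and 42840 in G. The probe set rc_AI176658_s_at gave 14659 and 13848 in Mat-Lylu, against 36758 and 40053 in G. On both, the Mat-Lylu arrays were the low ones and the spread within each line was small beside the gap. The log2 differences were -1.91 (SE 0.11, adjusted p = 6.7e-06) and -1.43 (SE 0.10, adjusted p = 2.3e-05). Names that end in _s_at mark probe sets that can match more than one transcript.

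A pair of Hspb1 probe sets designed on the same expressed sequence tag went apart. The probe set rc_AA998683_g_at read 6782 and 5234 in Mat-Lylu, against 34006 and 20784 in G, a log2 difference of -2.15 (SE 0.22, adjusted p = 0.00018). The probe set rc_AA998683_at read 9400 and 10776 in Mat-Lylu, against 9226 and 6606 in G. Its Mat-Lylu arrays were both above its G arrays, and its log2 difference of 0.37 (SE 0.16, adjusted p = 0.12) did not pass; without G replicate 0 it passed at 0.61 (adjusted p = 0.0048). A further probe set, rc_AA799438_at, lists Hspb1 together with Asb2 and cannot be assigned to either; it read 9092 and 9116 in Mat-Lylu, against 15415 and 16569 in G (log2 difference -0.81, SE 0.09, adjusted p = 0.00024). Why the probe sets disagree was not tested.

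Hspa8 encodes Hsc70, the constitutive cytosolic Hsp70 that folds new proteins and strips clathrin from vesicles. Both of its probe sets also list Haus8l2, so these values belong to the probe sets and not to Hspa8 alone. The probe set rc_AI234604_s_at read 45288 and 44113 in Mat-Lylu, against 45206 and 53747 in G (log2 difference -0.14, SE 0.13, adjusted p = 0.45). Both Mat-Lylu arrays and G replicate 0 were within 5% of the highest signal of their array, so this probe set was near the top of the scale and a difference could be compressed there. The probe set M11942_s_at read 37614 and 36785 in Mat-Lylu, against 37311 and 42029 in G (log2 difference -0.09, SE 0.11, adjusted p = 0.60). On both, the lines overlapped, and G replicate 1 held the high value; the highest signal of that array was 64036, against 45582 to 47120 on the other arrays.

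**Figure D2:**
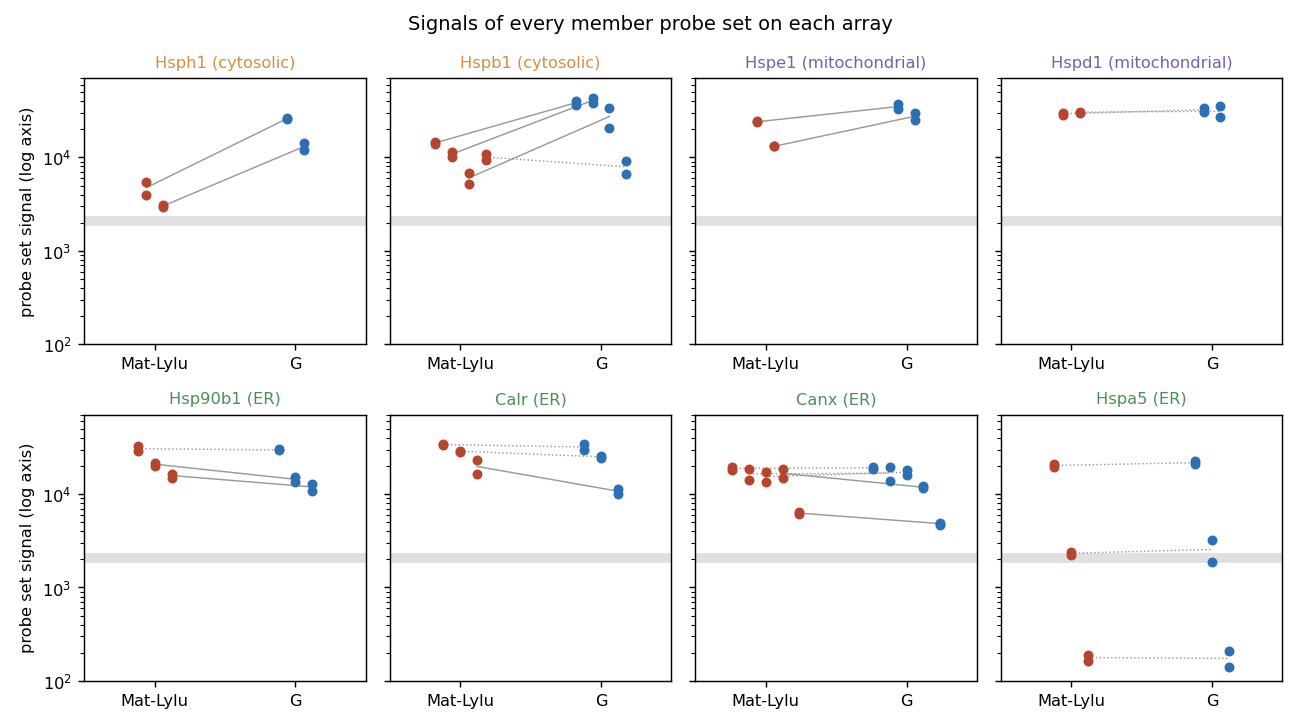
Signal (log axis) of each single-symbol member probe set on each array, Mat-Lylu in red left of G in blue; lines join the means of a probe set and are dotted where it did not pass or was not tested, and the grey band spans the background levels of the arrays, 1891 to 2311. Hsph1, Hspe1 and 3 probe sets of Hspb1 sit lower in Mat-Lylu, and the ER members lie level or up to 1.81-fold higher.

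Hspe1 encodes Hsp10, the lid of the mitochondrial folding chamber. Its probe set rc_AI170613_at read 13179 and 13094 in Mat-Lylu, against 29930 and 25242 in G. The partner probe set rc_AI170613_g_at read 24365 and 23747 in Mat-Lylu, against 32636 and 37359 in G. The Mat-Lylu arrays were lower on both, with log2 differences of -1.06 (SE 0.11, adjusted p = 0.00018) and -0.54 (SE 0.11, adjusted p = 0.0071). Leaving out Mat-Lylu replicate 0 or Mat-Lylu replicate 1 ended the call of the second (adjusted p = 0.074 or 0.10), while the first kept it in all 14 settings.

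Hspd1 encodes Hsp60, the chamber itself. Its probe set rc_AA858640_s_at read 29929 and 28700 in Mat-Lylu, against 30690 and 34043 in G, and X54793_at read 30084 and 30843 in Mat-Lylu, against 35133 and 27230 in G. The lines overlapped on X54793_at, and on the other the Mat-Lylu arrays were just under the G arrays. The log2 differences were -0.14 (SE 0.11, adjusted p = 0.37) and -0.02 (SE 0.14, adjusted p = 0.93). Hspe1 and Hspd1 stand head to head on chromosome 9: the Hspd1 window at chr9:64083988-64084287 (minus strand) shares 211 bases with the Hspe1 window, and the shared stretch holds the same heat shock element cores. Averaged over the probe sets of each gene, the log2 difference was -0.80 for Hspe1 and -0.08 for Hspd1, so Hspe1 changed by -0.72 relative to Hspd1. With 2 arrays against 2, an exact permutation test of this value cannot give a two-sided p below 0.333, and none is given.

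**Figure D3:**
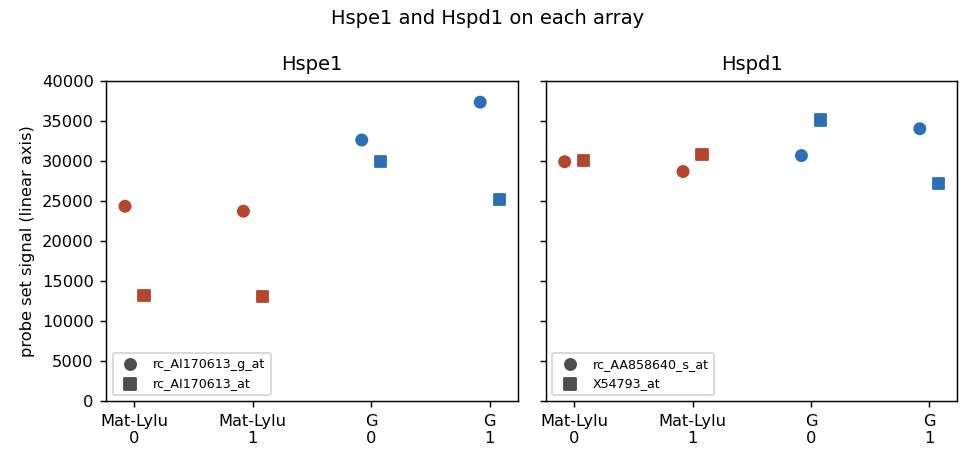
Signal (linear axis) of both probe sets of Hspe1 and of Hspd1 on the 2 Mat-Lylu arrays (red) and the 2 G arrays (blue); circles and squares mark the probe sets. For Hspe1 the Mat-Lylu signals of 13094 to 24365 lie under the G signals of the same probe set, and for Hspd1 the signals of the lines lie between 27230 and 35133.

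Hsp90b1 encodes Grp94, the Hsp90 of the ER, which folds integrins and Toll-like receptors. The probe set AA685903_at read 21634 and 20201 in Mat-Lylu, against 15311 and 13469 in G. The probe set S69316_s_at read 16592 and 15001 in Mat-Lylu, against 12965 and 10872 in G. Both Mat-Lylu arrays were higher on these 2 probe sets, with log2 differences of 0.54 (SE 0.10, adjusted p = 0.0048) and 0.41 (SE 0.11, adjusted p = 0.026). Leaving out Mat-Lylu replicate 0 or G replicate 1 ended the call of the second (adjusted p = 0.15 or 0.074). The brightest probe set, S69315_at, read 32383 and 28848 in Mat-Lylu, against 29337 and 30044 in G, where the lines overlapped (log2 difference 0.04, SE 0.11, adjusted p = 0.81).

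Calr encodes calreticulin, the soluble lectin chaperone that holds glycoproteins and calcium in the ER. The probe set X53363cds_s_at read 16404 and 23114 in Mat-Lylu, against 11408 and 10085 in G, a log2 difference of 0.86 (SE 0.16, adjusted p = 0.0041). Both Mat-Lylu arrays were higher, and they differed from each other more than the G arrays did. The brighter probe sets were closer together: D78308_at read 33342 and 34467 in Mat-Lylu, against 29709 and 34083 in G (log2 difference 0.09, SE 0.11, adjusted p = 0.59). D78308_g_at read 28429 and 29142 in Mat-Lylu, against 24204 and 25854 in G (log2 difference 0.20, SE 0.10, adjusted p = 0.17). With quantile normalization both passed, at 0.20 (adjusted p = 0.039) and 0.28 (adjusted p = 0.016). D78308_g_at, on which the lines did not overlap, also passed with cyclic loess scaling, at 0.30 (adjusted p = 0.019).

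Canx encodes calnexin, the membrane-bound partner of calreticulin. Of its 5 probe sets, 2 were higher in Mat-Lylu and 3 did not pass. The probe set rc_AI235707_g_at read 18456 and 14965 in Mat-Lylu, against 12101 and 11544 in G (log2 difference 0.49, SE 0.12, adjusted p = 0.013). The dimmest, rc_AA893328_at, read 6441 and 6058 in Mat-Lylu, against 4700 and 4958 in G (log2 difference 0.37, SE 0.08, adjusted p = 0.011). Both Mat-Lylu arrays were above both G arrays on each, and both calls were lost without Mat-Lylu replicate 0 (adjusted p = 0.10 and 0.066). On L18889_at, the brightest, the signals were 19470 and 18180 in Mat-Lylu, against 19550 and 18735 in G (log2 difference -0.02, SE 0.10). The 2 remaining probe sets, rc_AI010725_g_at and rc_AI010725_at, had log2 differences of -0.02 (SE 0.18) and -0.17 (SE 0.13), with overlapping lines.

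Hspa5 encodes BiP, the Hsp70 of the ER and the usual gauge of the unfolded protein response. The probe set M14050_s_at read 21002 and 19498 in Mat-Lylu, against 22438 and 20950 in G, and the lines overlapped. Its log2 difference was -0.10 (SE 0.10, adjusted p = 0.50). The probe set S63521_i_at, close to background, read 2425 and 2223 in Mat-Lylu, against 3211 and 1895 in G (log2 difference -0.09, SE 0.21, adjusted p = 0.80); without G replicate 1 it was lower at -0.47 (adjusted p = 0.012). The third, S63521_r_at, read 191 and 165 in Mat-Lylu, against 207 and 141 in G, under background on all 4 arrays, and fell below the filter on low signals, so it was not tested.

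With the brightest probe set alone standing for each gene, Hsph1, Hspb1 and Hspe1 were lower and none of the 4 ER members passed, and the ER median was 0.0087. The higher calls of the ER members thus came from their less bright probe sets.

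Other protein folding and stress genes were counted by the brightest tested probe set of each gene, in lists written with earlier results of these data known. Of 21 other cytosolic chaperone genes and cofactors tested, 8 were lower, 3 higher and 10 did not pass, with a median log2 difference of -0.22. By the same count over all 3867 genes, 19.6% were lower and 13.7% higher. St13, the Hsp70-interacting protein Hip, was 2.03-fold lower, with 10600 and 10024 in Mat-Lylu, against 21618 and 20333 in G (adjusted p = 8.4e-05). Cryab, the small heat shock protein alpha-B crystallin, was 2.09-fold lower, with 3753 and 2744 in Mat-Lylu, against 7234 and 6249 in G (adjusted p = 0.00098). All probe sets of St13 and Cryab, 2 each, were lower.

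Hsf1, the heat shock transcription factor, was 1.56-fold lower, with 7267 and 7026 in Mat-Lylu, against 12382 and 10084 in G (adjusted p = 0.0029), and 2 of its 3 probe sets were lower. The Hsp90 co-chaperone Fkbp4 was 1.45-fold lower on its brightest probe set and lower on all 3, and Hspa4, a relative of Hsph1, was 1.43-fold lower on 1 of 2. Hspa1a, the inducible Hsp70, read 1711 and 1780 in Mat-Lylu, under background, against 2133 and 2439 in G (log2 difference -0.38, adjusted p = 0.020). With values raised to the background level its adjusted p was 0.66, and it lost its call without any 1 of Mat-Lylu replicate 0, Mat-Lylu replicate 1 or G replicate 1 (adjusted p = 0.085, 0.051 and 0.089). Serpinh1, the collagen chaperone Hsp47, which works in the ER although it was listed here with the heat shock genes, was 1.27-fold lower (adjusted p = 0.030, and 0.056 with the replicate number as a block). It also lost its call with median scaling (adjusted p = 0.064) and without Mat-Lylu replicate 0 or 1 (log2 difference -0.32 or -0.38). Counted instead with the ER folding genes, it leaves 7 lower and 3 higher of 20 cytosolic genes (median -0.16) and makes 5 lower and 3 higher of 21 ER folding genes (median -0.17).

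The 3 higher genes of this list fall outside the rule for named genes and are given after their values were seen: the Hsp40 gene Dnaja2 was 1.48-fold higher (adjusted p = 0.013, 3 of 3 probe sets), the Hsp90 co-chaperone gene Cdc37 1.33-fold (adjusted p = 0.022, 1 of 2) and the chaperonin subunit gene Cct3 1.21-fold (adjusted p = 0.041). Without Mat-Lylu replicate 0 none of the 3 passed (adjusted p = 0.061, 0.17 and 0.16), Cdc37 did not pass without Mat-Lylu replicate 1 either (adjusted p = 0.10), and Cct3 lost its call without any 1 of the 4 arrays (adjusted p up to 0.21). On their brightest probe sets the Hsp40 genes Dnajb1 and Dnaja1 missed the threshold, at -0.03 (SE 0.12) and -0.40 (SE 0.18) on the log2 scale; 1 of 2 probe sets of Dnaja1 was lower, and its brightest passed without Mat-Lylu replicate 0 (-0.69, adjusted p = 0.0073). None of the 4 probe sets of the cytosolic Hsp90 gene Hsp90ab1 passed, and its brightest read 41128 and 40063 in Mat-Lylu, against 39968 and 46629 in G (log2 difference -0.09, SE 0.12). That value was 0.0035 with quantile normalization and 0.025 with cyclic loess, and without G replicate 0 it passed at -0.20 (adjusted p = 0.045). Hspa1b and Hsp90aa1 had no probe set of their own and were not analysed here. Without Mat-Lylu replicate 1 the count of lower genes in this list was 5, and without either Mat-Lylu array the count of higher genes was 1.

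Of 20 other ER folding genes tested, 3 were higher, 4 lower and 13 did not pass, with a median log2 difference of -0.13; these shares are near those over all genes (13.7% higher and 19.6% lower). The protein disulfide isomerases Pdia6 and Pdia4 were higher. Pdia6 read 28980 and 27222 in Mat-Lylu, against 16148 and 13313 in G (1.91-fold, adjusted p = 0.00055). Pdia4 read 12089 and 11487 in Mat-Lylu, against 7887 and 6860 in G (1.60-fold, adjusted p = 0.0011). Lower were the calcium-binding reticulocalbin Rcn2 (1.97-fold), the translocation factor Sec62 (1.71-fold) and the cargo receptor Lman1 (1.59-fold, 1 of 3 probe sets), with adjusted p-values of 9.6e-05, 0.00024 and 0.00042. Given after their values were seen, the calcium-binding calumenin gene Calu was 1.51-fold lower (adjusted p = 0.0032, and 0.052 without Mat-Lylu replicate 1) and the translocon-associated gene Ssr3 1.30-fold higher (adjusted p = 0.035). Leaving out any array other than G replicate 0 ended the call of Ssr3 (adjusted p = 0.087 to 0.16). The isomerases P4hb and Pdia3 missed the threshold, at -0.22 (SE 0.11) and 0.06 (SE 0.15) on the log2 scale; 1 of 3 probe sets of P4hb was lower, and without G replicate 0 its brightest passed at -0.32 (adjusted p = 0.015).

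Of 11 genes of the unfolded protein response and the integrated stress response tested, 3 were higher, 3 lower and 5 did not pass, with a median log2 difference of -0.06, where 13.7% of all genes were higher and 19.6% lower. Asns, the asparagine synthetase and a target of Atf4, read 7958 and 7793 in Mat-Lylu, against 332 and 410 in G, under background there, and was at least 3.81-fold higher (adjusted p = 9.5e-08). The bound raises the G values to the background level of their array. Ddit3, the stress-induced factor Chop, was 2.59-fold lower, with 7356 and 3673 in Mat-Lylu, against 14707 and 12361 in G (adjusted p = 0.0061). Trib3, the pseudokinase induced by Chop, was 1.54-fold lower on its brighter probe set and lower on both (adjusted p = 0.00091). Eif2ak3, the ER stress kinase Perk, given after its values were seen, was 1.30-fold lower on its brightest probe set and lower on both (adjusted p = 0.011, and 0.061 without Mat-Lylu replicate 1). Eif2s1, the initiation factor subunit that stress kinases phosphorylate, was 1.48-fold higher (adjusted p = 0.0025). Nupr1, a stress-induced chromatin protein, was higher as fitted (adjusted p = 0.011). Both G arrays and Mat-Lylu replicate 1 were under background, so no bound is given. With values raised to the background level Nupr1 was 1.24-fold higher and did not pass (adjusted p = 0.12). Its call was also lost without Mat-Lylu replicate 0 (log2 difference 0.35). Atf4 and Xbp1 were not analysed here.

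Of 10 other genes of mitochondrial import and folding tested, 2 were higher, 4 lower and 4 did not pass, with a median log2 difference of -0.0098, where 13.7% of all genes were higher and 19.6% lower. Hspa9, the mitochondrial Hsp70, was 1.34-fold lower, with 11475 and 11830 in Mat-Lylu, against 16054 and 15087 in G (adjusted p = 0.0081), and 2 of its 3 probe sets were lower. Leaving out Mat-Lylu replicate 0 or Mat-Lylu replicate 1 ended the call of its brightest probe set (adjusted p = 0.072 or 0.050). Trap1, the mitochondrial Hsp90, was 1.60-fold lower (adjusted p = 0.0035). The inner membrane translocase gene Timm17a and the processing peptidase gene Pmpcb were 1.40-fold and 1.38-fold lower. Tomm20, the import receptor of the outer membrane, was higher, with 29603 and 30717 in Mat-Lylu, against 12036 and 11172 in G (2.60-fold, adjusted p = 2.0e-05), and both of its probe sets were higher. The prohibitin gene Phb2 was 1.46-fold higher.

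**Figure D4:**
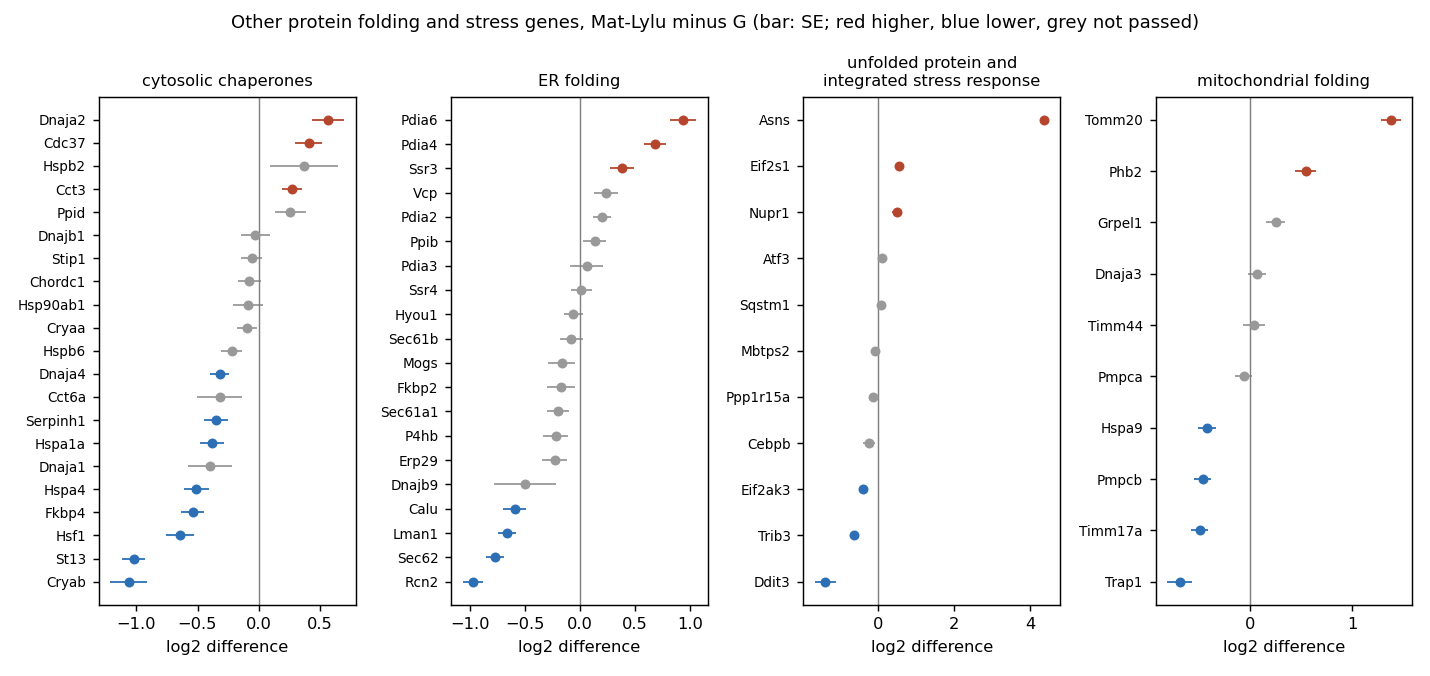
Log2 difference (Mat-Lylu minus G) of the brightest tested probe set of each gene in 4 lists of other folding and stress genes, with the SE of the limma fit as the bar; red genes were higher, blue genes lower and grey genes did not pass. Each list holds genes in both directions, and the fitted values of Asns, Nupr1 and Hspa1a have no exact size because 1 line was under background on both arrays. Timm44 was under background on all 4 arrays, and Dnajb9, Ppid and Atf3 were under background on some arrays.

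For orientation, the 3 probe sets most like each leading member were found by the distance between their 4 centred log2 signals; most of that distance reflects the size of the difference between the lines. Nearest to Hsph1 (rc_AI236601_at) were the metalloproteinase gene Mmp14 (log2 difference -2.46), App and Chrna7, at distances of 0.14 to 0.21. Nearest to Hspb1 (rc_AI176658_s_at) were Atp6ap1, Gsta1 and Timp2, at 0.08 to 0.09. Nearest to Hspe1 (rc_AI170613_at) were Icam1, Phgdh and Eci1, at 0.03 to 0.06, and nearest to Calr (X53363cds_s_at) were Hmgb2, Prdx6 and Sf1, at 0.15 to 0.19. No other member or listed folding gene was among these 12.

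Array medians ran from 2998 to 3015 in Mat-Lylu and from 3049 to 3156 in G, and log2 signals of arrays of a line correlated at r of about 0.99 over the probe sets tested. As a description of the lines, the epithelial keratin gene Krt8 read 41435 and 41521 in Mat-Lylu, against 1978 and 1691 in G. Epcam was under background on all 4 arrays and Cdh1 was not analysed here. The secretory prostate genes Pbsn, Msmb, Svs4 and Tgm4 were under background on all 4 arrays on their brightest probe sets. A further prostate gene, Acp3, read 2015 and 2184 in Mat-Lylu, against 1897 and 2228 in G, on its brightest probe set. It was under background on 1 array of each line and did not pass by limma (adjusted p = 0.87). Fibroblast markers moved with the lines: 6 of 7 were lower in Mat-Lylu, and their summed signal was 48528 to 49716 in Mat-Lylu, against 142655 to 160817 in G, without any of them at 0; Col1a2, Thy1 and Pdgfra were under background on both Mat-Lylu arrays. Of 5 epithelial markers tested, Krt8 and Spint2 were higher and Krt5, Krt18 and Krt19 did not pass. On their brightest probe sets, Krt14 and Krt19 were under background on all 4 arrays. Krt18 was under background on both Mat-Lylu arrays and on 1 G array. The summed signal of 7 epithelial markers was 66864 to 66994 in Mat-Lylu, against 13429 to 15016 in G, and most of it in Mat-Lylu was that of Krt8 and Spint2 (16867 and 16524 in Mat-Lylu, against 4037 and 3826 in G). None of 4 leukocyte and 2 endothelial markers tested passed by limma, nor did any at an unadjusted p under 0.05. The part of these marker differences in the chaperone results was not tested.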

How the data were processed

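Total RNA was made into biotinylated cRNA and hybridised to 4 arrays, per the labels' protocols. The authors deposited 1 table of linear signal intensities per probe set, and the submitters' processing notes name MAS5, a summary over the probes of each probe set; not given in the sources used here were its version, scaling target and filters. The 2% trimmed means of the arrays differed by at most 7.83%, under the limit of 10%, so the intensities were used as deposited.

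Symbols came from the platform annotation, updated through gene identifiers in the RefSeq table of GRCr8: 7018 of 8799 probe sets had 1 symbol (6994 matched), 308 several and 1473 none, and only those with 1 were named as a gene. The 59 control probe sets and the 25% of the others with the lowest mean log2 signal were left out, and 6555 were tested on log2(signal + 16) with limma 3.58.1 in R 4.3.3 (eBayes with an intensity trend, 2-sided, Benjamini-Hochberg). The fit was tested on simulated data. Each array's 23 control probe sets of other organisms set its background level, at their 95th percentile. All 9 promoters were matched by symbol in RefSeq. Members, lists and the rule for named genes (all members, the 5 smallest p among those past the threshold in each list, and a fixed set of genes given in any case) were chosen with earlier results of these data known. The alternatives are given in the closing section.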

Additional observations from a re-analysis of the deposited data

How the results depend on the processing

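The alternatives were pseudocounts of 1 and 64, no filter or the lower 50% left out, quantile, median and cyclic loess scaling, no intensity trend, a floor at the background level, the replicate number as a block and each array left out in turn; their use for counts of members and of other genes was chosen after seeing the data. Over the tested member probe sets, 291 values kept direction and call, 6 lost a call, 6 gained one and 18 changed sign, all 18 of them uncalled in both settings. Probe sets higher and lower numbered 136 and 164 when tested against a minimum log2 difference of 1, and 549 and 799 after averaging the probe sets of each gene, which leaves fewer features; leaving out 1 array gave 684 to 1005 higher and 962 to 1308 lower. In the main fit 891 probe sets were higher and 1318 lower. With quantile scaling the counts were 1118 and 1158, with median scaling 1063 and 1171, and with loess scaling 1038 and 1207. The excess of lower calls over all probe sets was thus smaller with each scaling. The labels pair no arrays across lines. Deviations of same-numbered arrays correlated at 0.16 over the probe sets, and the replicate block gave 951 higher and 1402 lower; among the genes named it ended the call of Serpinh1 alone.

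Leaving out 1 array, the cytosolic median ran from -2.03 to -1.89, the ER median from 0.12 to 0.23 and the mitochondrial median from -0.43 to -0.31. Called members ran from 0 to 1 higher and 5 to 5 lower in the cytosol, 2 to 5 and 0 to 1 in the ER, and 0 to 0 and 1 to 2 in mitochondria. For the other genes the ranges were 1 to 3 higher and 5 to 10 lower among cytosolic chaperones, 2 to 3 and 3 to 5 in ER folding, 2 to 3 and 2 to 4 in the stress responses, and 2 to 3 and 3 to 4 in mitochondrial folding. The ER median was 0.15 with the lower 50% left out, 0.20 with quantile, 0.14 with median and 0.20 with loess scaling, and 0.0087 with 1 probe set a gene. The mitochondrial median was -0.23 with quantile, -0.29 with median and -0.24 with loess scaling, and -0.54 with plain _at probe sets only. ER folding had 6 higher genes with quantile normalization, and the stress responses 1 with the lower 50% left out, where fewer were tested. The cause of the other moves was not tested.

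Sign changes were as follows. With quantile, median and loess scaling, Canx L18889_at was 0.076, 0.021 and 0.056, Canx rc_AI010725_g_at 0.068, 0.025 and 0.053, Hspd1 X54793_at 0.042, 0.023 and 0.079 and Dnajb1 0.028, 0.017 and 0.025; Hsp90ab1 was 0.0035 with quantile and 0.025 with loess scaling. Leaving out 1 array, the ranges that crossed 0 were -0.47 to 0.29 for Hspa5 S63521_i_at, -0.041 to 0.13 for Hsp90b1 S69315_at, -0.0078 to 0.19 for Calr D78308_at, -0.074 to 0.025 for Canx L18889_at, -0.27 to 0.23 for Canx rc_AI010725_g_at, -0.34 to 0.0065 for Canx rc_AI010725_at, -0.21 to 0.16 for Hspd1 X54793_at, -0.20 to 0.022 for Hsp90ab1, -0.20 to 0.14 for Dnajb1 and -0.15 to 0.26 for Pdia3. Signals near background, as for Hspa5 S63521_i_at and Hspa1a, and near the top of the scale, as for rc_AI234604_s_at, shared by Hspa8 and Haus8l2, limit what these arrays can resolve.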

Other observations

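Serpinh1, whose product binds procollagen in the ER, can be set beside the collagen genes on the same arrays. It read 22296 and 23256 in Mat-Lylu, against 28294 and 29606 in G, and was 1.27-fold lower. That call was lost in several alternative settings. Col1a1, the main chain of type I collagen, read 2604 and 2742 in Mat-Lylu, against 39741 and 47723 in G, and was 16.2-fold lower by limma (adjusted p = 1.0e-07). These genes were set side by side after their values were seen.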
